A study of Mus musculus with 16 samples.

Results

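Chemokines are small secreted proteins that guide the migration of leukocytes, and they act through G protein-coupled receptors on the cells they attract. The chemokines and their receptors were taken from the count tables by symbol: names of the CC, CXC and XC ligand and receptor series, together with *Cx3cl1*, *Cx3cr1*, *Xcl1* and the atypical receptors *Ackr1* to *Ackr4*. The rule used no measured value apart from leaving out genes without a single read. It matched 61 symbols, of which 5 (*Ccl21a*, *Ccl21b*, *Ccl21c*, *Ccl26* and *Ccl27b*) had 0 reads in all 16 libraries. The 56 genes that remained, of 24984 in the tables, comprised 19 CC ligands, 13 CXC ligands, 2 other ligands (*Cx3cl1* and *Xcl1*), 10 CC receptors, 6 CXC receptors, 2 other receptors (*Cx3cr1* and *Xcr1*) and 4 atypical receptors.

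RNA of kidney and liver was sequenced from aged female wild-type C57BL/6 mice that had received AAV8, an adeno-associated virus vector, through the tail vein. The vector expressed a short hairpin RNA against *Fos*, which encodes a subunit of the transcription factor AP-1 (the sh*Fos* group, shFOS in the plots), or, in the NT group (shNT in the plots), a non-targeting hairpin, so the control mice carried a vector as well. Each organ had 4 NT and 4 sh*Fos* libraries, and the comparison of sh*Fos* with NT asked how lowering *Fos* in aged mice affected inflammatory gene expression. The mice were injected at an age of 24 months and their organs collected 3 months later, whereas 24 months is the age on every sample label. The promoter of the hairpin and the cells that took up the vector are not given in the sources used here, and whole organs were sequenced, so a smaller number of cells of a type and less RNA per cell cannot be told apart. The labels do not state whether a kidney and a liver with the same replicate number came from the same mouse, or that libraries of a group came from different mice, so p-values measure the spread between these libraries.

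The kidney libraries held 14194543 to 15534665 reads counted on genes, and the liver libraries held 16652150 to 18300277. Levels are given as CPM, the read count of a gene relative to the size of its library, after TMM scaling within a tissue. A count of 0 allows up to 3 reads, or 0.164 to 0.211 CPM, which covers counting error only. Markers of the labelled organs were present: the summed level of 5 hepatocyte genes was 43790 to 189000 CPM in NT livers and 391 to 1005 CPM in NT kidneys, and that of 6 tubule genes was 11040 to 14460 CPM in NT kidneys and 0.808 to 1.30 CPM in NT livers. Several libraries stood apart. NT kidney 4 had the lowest summed T cell markers (6.51 CPM, against 37.1 to 64.4 in the other NT kidneys) and macrophage markers (461 CPM, against 813 to 1149), and the highest neutrophil markers (26.3 CPM, against 3.45 to 4.01). NT liver 4 had the lowest hepatocyte sum and the highest neutrophil sum (165 CPM, against 13.8 to 48.7), and NT liver 3 the highest sums of macrophage (1445 CPM, against 337 to 782) and Kupffer cell markers (859 CPM, against 147 to 391). *Fos* itself was at 6.70, 5.26, 4.23 and 5.28 CPM in NT kidneys and at 2.57, 4.12, 3.93 and 2.30 CPM in sh*Fos* kidneys, so the groups did not overlap (log2 fold change -0.73, standard error 0.25, edgeR adjusted p = 0.0947). In the liver *Fos* was at 2.51 ± 1.08 CPM in NT and 1.82 ± 0.637 CPM in sh*Fos* libraries (SD, n = 4 each), a log2 fold change of -0.47 (standard error 0.38, edgeR adjusted p = 0.775).

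Chemokine ligands are secreted by resident cells of an organ (endothelium, epithelium, fibroblasts) and by leukocytes, while the conventional receptors are carried mainly by leukocytes and signal through Gi proteins. Inflammatory chemokines such as CXCL1 are induced by cytokines through NF-kB and AP-1, homeostatic ones such as CXCL12 are made constantly, and atypical receptors bind chemokines and remove them without G protein signalling. The family lies in genomic clusters of closely related genes. Of the 56 genes, 14 were on chromosome 11, 13 on chromosome 9, 10 on chromosome 5 and 7 on chromosome 1 of mm10. With neighbours joined when less than 250 kb apart, 8 clusters held 2 or more of them. The largest, on chromosome 9, held receptor genes, among them *Ccr1*, *Ccr2*, *Ccr3*, *Cxcr6* and *Xcr1*, and the next held 6 CC ligand genes (*Ccl2*, *Ccl7*, *Ccl11*, *Ccl12*, *Ccl8* and *Ccl1*, chr11:82035571-82305690).

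**Figure D1:**
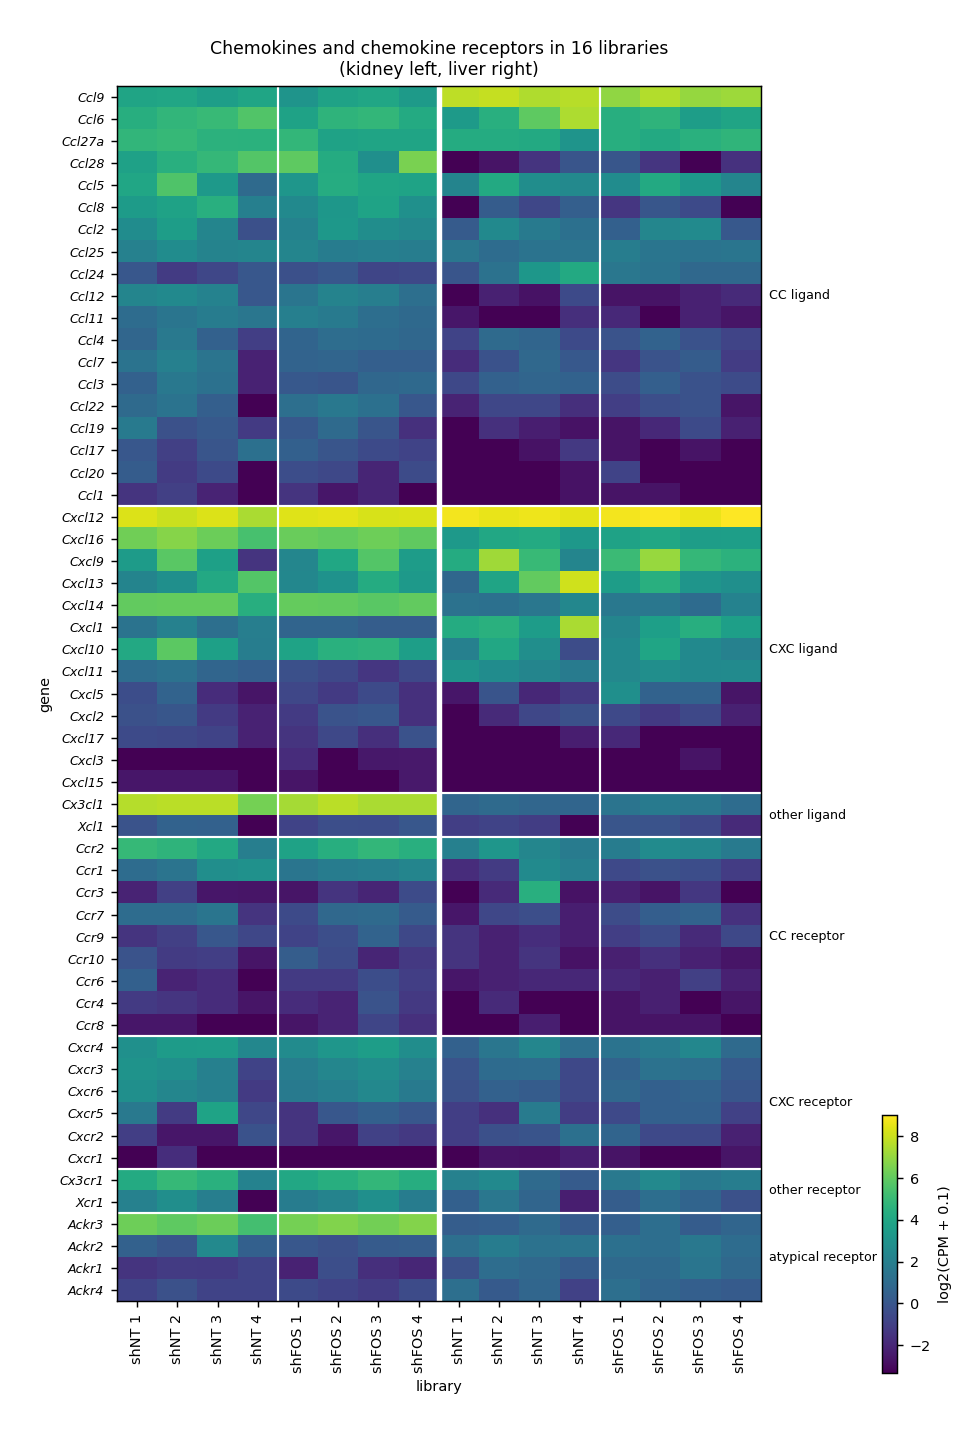
Level of chemokine and receptor genes (rows, ordered by class and mean) in each of the 16 libraries (columns), as log2(CPM + 0.1) in colour. *Cxcl12* is high in all libraries, *Cx3cl1* and *Ackr3* are high in the kidneys, *Ccl9* is high in the livers, and NT kidney 4 is darker than its group for many genes.

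The first question was which of these genes each organ expressed in the NT libraries. Per kilobase of exon, *Cx3cl1* was the highest in the kidney at 44.8 ± 15.3 CPM per kb (SD, n = 4). It encodes the membrane-bound ligand of CX3CR1. It was followed by *Cxcl12* (32.9 CPM per kb), the constitutive ligand of CXCR4, *Cxcl14* (30.3), *Cxcl16* (25.4), *Ccl8* (24.6), *Ccl5* (19.8), *Ackr3* (19.0), the atypical receptor that takes up CXCL12, and *Ccl6* (17.96 CPM per kb). In the liver *Cxcl13* had the highest mean, 78.3 CPM per kb, with an SD of 112 CPM per kb that exceeded it. The liver means of *Ccl9* (69.8 CPM per kb), *Cxcl12* (48.9), *Ccl6* (37.6), *Cxcl1* (30.4), *Cxcl9* (17.1), *Ccl5* (8.92) and *Ccl27a* (6.73 CPM per kb) came next. Most of these order differences lay within the spread between libraries, and with the median transcript length in place of the exon length *Cxcl12* led in the liver (133 CPM per kb), ahead of *Ccl9*, *Ccl6* and *Cxcl13*.

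In NT kidneys *Ccr2* (19.3 ± 11.7 CPM), the receptor of monocytes for CCL2, and *Cx3cr1* (18.9 ± 11.03 CPM) had the highest means of the conventional receptors in CPM (SD, n = 4 each). This order depended on gene length. Per kilobase of exon, *Cxcr4* (4.67 CPM per kb) and *Cx3cr1* (4.19) were above *Ccr2* (2.86). Some genes were close to absent: 3 in the kidney (*Cxcl3*, *Cxcl15* and *Cxcr1*) and 7 in the liver (*Ccl1*, *Ccr4*, *Ccr8*, *Cxcl3*, *Cxcl15*, *Cxcl17* and *Cxcr1*) had at most 3 reads in every library. Low counts removed 16 of the 56 genes from the kidney tests and 21 from the liver tests. The receptors *Ccr3*, *Ccr4*, *Ccr6*, *Ccr8*, *Ccr9*, *Ccr10* and *Cxcr1* were left out in both organs.

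Liver and kidney differed in 17 of the 37 chemokine genes tested between the NT libraries, 9 higher in the liver and 8 higher in the kidney (edgeR, adjusted p under 0.05). Of all 14875 genes tested, 27.7% were higher in the liver and 32.3% higher in the kidney. The values below were scaled over the 8 NT libraries of both organs together and so differ from those scaled within a tissue. Among the ligands, *Ccl9* was at 303 ± 33.8 CPM in the liver and 10.3 ± 1.12 CPM in the kidney (SD, n = 4 each), a log2 difference of 4.88 (standard error 0.15, edgeR adjusted p = 4.98e-08). CCL9 and CCL6 are mouse CC chemokines that act on CCR1. *Cxcl1*, a neutrophil attractant that signals through CXCR2, was at 81.8 ± 114 CPM in the liver and 2.26 ± 0.695 CPM in the kidney, a log2 difference of 5.17 (edgeR adjusted p = 0.00143) that was 3.49 when NT liver 4 was left out. *Ccl24*, an eosinophil attractant (log2 difference 4.46), *Cxcl11* (2.62), *Ccl6* (2.07) and *Cxcl12* (1.56) were also higher in the liver. *Ccl6* had an adjusted p of 0.0432 in edgeR that ranged from 0.00762 to 0.146 over 13 alternatives and was above 0.05 without any 1 of NT kidneys 1, 2 and 3 and NT livers 3 and 4 (0.0632 to 0.146) and with upper-quartile scaling (0.0586). Among the receptors, *Cxcr2*, the neutrophil receptor for CXCL1, was higher in the liver (log2 difference 2.63). The atypical receptors *Ackr1* (2.96), of erythroid cells and venular endothelium, and *Ackr4* (2.25) were higher there as well. *Ackr4* had 8 to 33 reads in NT livers, and its exons overlap those of *Acad11* on the opposite strand. Exons of *Ackr1* overlap those of *Cadm3* on the same strand, so both values are uncertain. *Ackr1* passed the filter on low counts only with NT livers 2, 3 and 4 all included.

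In the other direction, *Cx3cl1* was at 127 ± 43.6 CPM in the kidney and 2.30 ± 0.232 CPM in the liver (SD, n = 4 each), a log2 difference of -5.78 (standard error 0.33, edgeR adjusted p = 8.72e-07). *Ccl28*, an epithelial chemokine that acts on CCR10, followed with a log2 difference of -5.56, and *Ackr3* with -4.61. *Ccl11* (-4.18), *Cxcl14* (-3.13), *Ccl12* (-3.31), *Ccl8* (-3.13) and *Cxcl16* (-1.51), the ligand of CXCR6, were higher in the kidney too. The CXCL12 partners thus differed in opposite directions: *Cxcl12* was 2.94 times as high in the liver and *Ackr3* was 0.0409 times its kidney level there, while for *Cxcr4* the adjusted p was 0.254 in edgeR (log2 difference -0.59, standard error 0.42). NT libraries of kidney and liver with the same number deviated from their groups together. With this number as a block 22 genes passed (62.7% of all genes, against 60.1% without it), the same 17 and *Ackr2*, *Cxcl9* and *Cxcl13* (higher in the liver) and *Cx3cr1* and *Cxcl10* (higher in the kidney). Without NT kidney 4, 25 of 43 tested passed (59.2% of all genes), among them *Ccr2*, *Ccr7*, *Cxcr3*, *Cxcr6* and *Cx3cr1* as higher in the kidney.

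**Figure D2:**
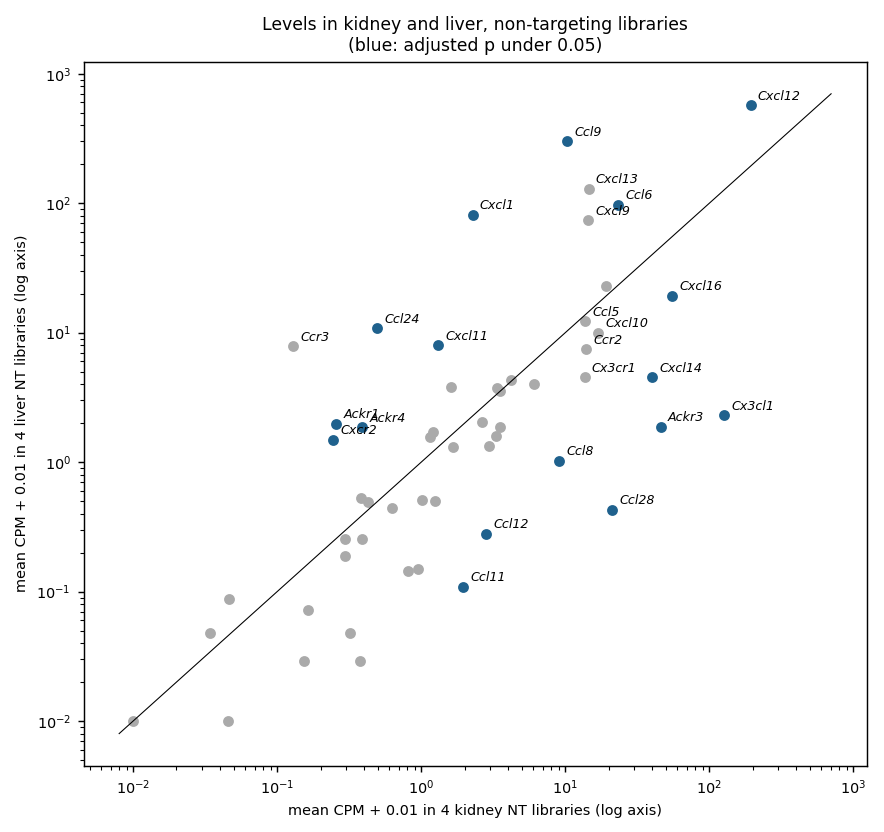
Mean level of each gene in 4 NT kidneys (x axis) and 4 NT livers (y axis), in CPM scaled over both organs plus 0.01, on log axes with the line of equality. The 17 genes in blue had an adjusted p under 0.05, with *Cx3cl1*, *Ackr3* and *Ccl28* far below the line and *Ccl9*, *Cxcl1* and *Ccl24* far above it, and *Ccr3* lies above the line through 1 library.

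In the kidney, sh*Fos* libraries had less *Cxcl1* and *Cxcl11* and more *Ackr3* than NT libraries, without overlap of the groups, but none of the 40 chemokine genes tested passed an adjusted p of 0.05 in edgeR, where 0% of all 14892 genes did. At an unadjusted p under 0.05, 3 were lower (*Cxcl1*, *Cxcl11* and *Ccl27a*) and 1 was higher (*Ackr3*), against 14.9% lower and 17.1% higher of all genes. The groups of 4 did not overlap for 2 lower genes and 1 higher gene, against 8.04% and 9.15% of all genes. DESeq2 called 3 (*Ackr3* higher, *Cxcl1* and *Cxcl11* lower), against 17.0% of all genes. Without sh*Fos* kidney 1, edgeR called 3 (*Ccl27a*, *Cxcl1* and *Cxcl11*, all lower), against 27.8% of all genes. The median log2 fold change of the 40 genes was -0.20, with 24 below 0, against 0.00225 over all genes tested. That median was 0.0461 without NT kidney 2, and the medians of single libraries had an SD of 0.476, so its size lay within the spread between libraries. By class, 11 of 17 CC ligands, 5 of 9 CXC ligands, 2 of 4 CC receptors and 4 of 4 CXC receptors tested had fitted values below 0. Over all genes 7407 of 14892 did. The CXC receptors *Cxcr3* (-0.004), *Cxcr4* (-0.05) and *Cxcr6* (-0.07) were closer to 0 than their standard errors. Without NT kidney 4 the count at an unadjusted p under 0.05 was 9 of 40 in place of 4 of 40. The count over all genes was 4660 of 15030 (31.0%) in place of 4762 of 14892 (31.98%). The share of the chemokine genes was below that of all genes in both fits.

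*Cxcl1* was at 2.50, 4.18, 2.15 and 3.74 CPM in NT kidneys 1 to 4 and at 1.48, 1.46, 1.14 and 1.15 CPM in sh*Fos* kidneys 1 to 4. All 4 sh*Fos* libraries lay below the lowest NT library, with 15 to 23 reads against 33 to 62. Fitted over the 8 kidneys this was a log2 fold change of -1.25 (standard error 0.28), and its adjusted p was 0.0650 in edgeR, 0.00646 in DESeq2 and 0.0166 in edgeR without sh*Fos* kidney 1 (0.00646 to 0.402 over 18 alternatives). The gene (ENSMUSG00000029380.11) spans chr5:90891241-90893115 on the + strand of mm10, in a cluster with *Cxcl5*, *Cxcl3*, *Cxcl15* and *Cxcl2*. *Cxcl2*, a ligand of the same receptor, was at 0.514 ± 0.346 CPM in NT and 0.570 ± 0.346 CPM in sh*Fos* kidneys, and the other members of the cluster and *Cxcr2* did not pass the filter there.

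The bases before the start of *Cxcl1* are shown because this gene was lower at an unadjusted p under 0.05 in both organs and the hairpin was directed at a subunit of AP-1. The liver result rested on NT liver 4, at 176 CPM, and the liver log2 fold change was -0.47 without that library. The sequence covers the 250 bases before the RefSeq start (chr5:90890995-90891244, + strand, GRCm38.p6), in lower case with a match to the NF-kB motif GGANTTTCC in capitals, 70 bases before the start.

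Cxcl1: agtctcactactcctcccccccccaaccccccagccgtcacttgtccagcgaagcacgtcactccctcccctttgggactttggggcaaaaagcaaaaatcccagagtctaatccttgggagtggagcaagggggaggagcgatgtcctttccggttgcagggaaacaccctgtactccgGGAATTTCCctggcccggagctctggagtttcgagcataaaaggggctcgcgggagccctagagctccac

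It held no match to the AP-1 motif TGACTCA on either strand. The same NF-kB letters stood before the 2 other ligand genes of the cluster that the RefSeq table holds with a match, *Cxcl2* (chr5:90903778-90903836, + strand) and *Cxcl3* (chr5:90786004-90786062, + strand), shown with 25 bases on each side.

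Cxcl2: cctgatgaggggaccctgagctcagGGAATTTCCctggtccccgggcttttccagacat
Cxcl3: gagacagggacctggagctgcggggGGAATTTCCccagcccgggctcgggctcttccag

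Of the 56 genes, 42 had a window of 300 bases (250 before to 50 after a start) in the RefSeq table. On either strand the AP-1 motif was found in the windows of 6 of them (14.3%; *Ccl27a*, *Ccl28*, *Ccr3*, *Ccr4*, *Cxcl9* and *Cxcl10*) and in 5.95% of all 27025 gene symbols in the table. The NF-kB motif was found in 5 (11.9%; *Ccr3*, *Cxcl1*, *Cxcl2*, *Cxcl3* and *Cxcl10*) and in 1.45% of all symbols. The motifs do not overlap each other in any of these windows. A match is a description of the letters and says nothing on whether a factor binds there.

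*Cxcl11* encodes a ligand of CXCR3, the receptor of activated T cells, but its C57BL/6 allele is annotated as a polymorphic pseudogene, so its transcript need not yield the protein. It was at 2.04, 2.43, 1.498 and 1.23 CPM in NT kidneys and at 0.71, 0.53, 0.29 and 0.54 CPM in sh*Fos* kidneys. The groups did not overlap, with 19 to 36 reads in NT and 4 to 11 reads in sh*Fos* libraries. Its exons overlap those of *Gm2673* on the opposite strand, which was not among the counted genes. Reads were counted without strand, so some of these few reads may come from *Gm2673*. The log2 fold change of -1.78 (standard error 0.35) had an adjusted p of 0.0650 in edgeR, 0.00411 in DESeq2, 0.0223 in the fit of all 16 libraries and 0.00798 without sh*Fos* kidney 1 (0.00385 to 0.190 over 18 alternatives). Its neighbours *Cxcl9* and *Cxcl10*, which encode the other CXCR3 ligands, varied so much between libraries that their log2 fold changes of 0.07 and -0.36 had standard errors of 1.04 and 0.67. *Cxcr3* itself was at 4.85 ± 3.37 CPM in NT and 4.83 ± 1.23 CPM in sh*Fos* kidneys (SD, n = 4 each).

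*Ackr3* was at 78.8, 62.3, 73.8 and 40.1 CPM in NT kidneys and at 86.9, 99.6, 84.2 and 106 CPM in sh*Fos* kidneys. Every sh*Fos* library lay above the highest NT library, with 622 to 1199 reads in NT and 1177 to 1498 in sh*Fos* libraries. Its log2 fold change of 0.56 (standard error 0.19) gave an adjusted p of 0.0914 in edgeR and 0.0408 in DESeq2 (0.0364 to 0.224 over 18 alternatives). Endothelium expresses *Ackr3* in many organs, and the summed level of 5 endothelial markers was also higher, 265 to 341 CPM in NT and 371 to 442 CPM in sh*Fos* kidneys. That sum did not overlap between groups (exact two-sided permutation test over 70 assignments, p = 0.0286, the smallest the design allows, 0.267 after adjustment over 28 sums), nor did those of the 6 tubule markers (11040 to 14460 against 14900 to 17180 CPM) and the 4 plasma cell markers (17.9 to 165 against 190 to 300 CPM). Their part in the *Ackr3* difference was not tested. The partners *Cxcl12* (log2 fold change 0.30, standard error 0.19) and *Cxcr4* (-0.05, standard error 0.29) gave adjusted p of 0.296 and 0.913 in edgeR.

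*Ccl27a*, an epithelial chemokine that acts on CCR10, was at 27.7, 30.6, 24.2 and 23.4 CPM in NT kidneys and at 28.5, 13.6, 14.7 and 14.4 CPM in sh*Fos* kidneys. sh*Fos* kidney 1 was at the NT level and the other 3 lay below every NT library. The log2 fold change was -0.57 (standard error 0.24, edgeR adjusted p = 0.139, 0.000784 to 0.306 over 18 alternatives), and without sh*Fos* kidney 1 it was -0.93 (standard error 0.11, edgeR adjusted p = 0.00181). Its value is uncertain because its exons overlap those of *Il11ra1* on the opposite strand, reads were counted without strand, and the genome holds a near-identical copy, *Ccl27b*. The table gives *Ccl27a* 3 starts, and the AP-1 motif stood 77 bases before the innermost of them (chr4:41770258-41770314, - strand, GRCm38.p6).

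Ccl27a: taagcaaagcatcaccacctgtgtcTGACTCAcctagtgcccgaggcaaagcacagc

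The receptor *Ccr10* did not pass the filter. *Cxcl10*, whose window is the only one besides that of *Ccr3* with both motifs, is printed for comparison, with the AP-1 match in its reverse complement TGAGTCA 74 bases before the start (chr5:92348932-92348988, - strand) and the NF-kB match in reverse complement 158 bases before it (chr5:92349014-92349072, - strand).

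Cxcl10 AP-1: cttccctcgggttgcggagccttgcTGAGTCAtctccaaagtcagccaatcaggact
Cxcl10 NF-kB: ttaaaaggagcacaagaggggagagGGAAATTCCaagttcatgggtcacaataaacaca

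**Figure D3:**
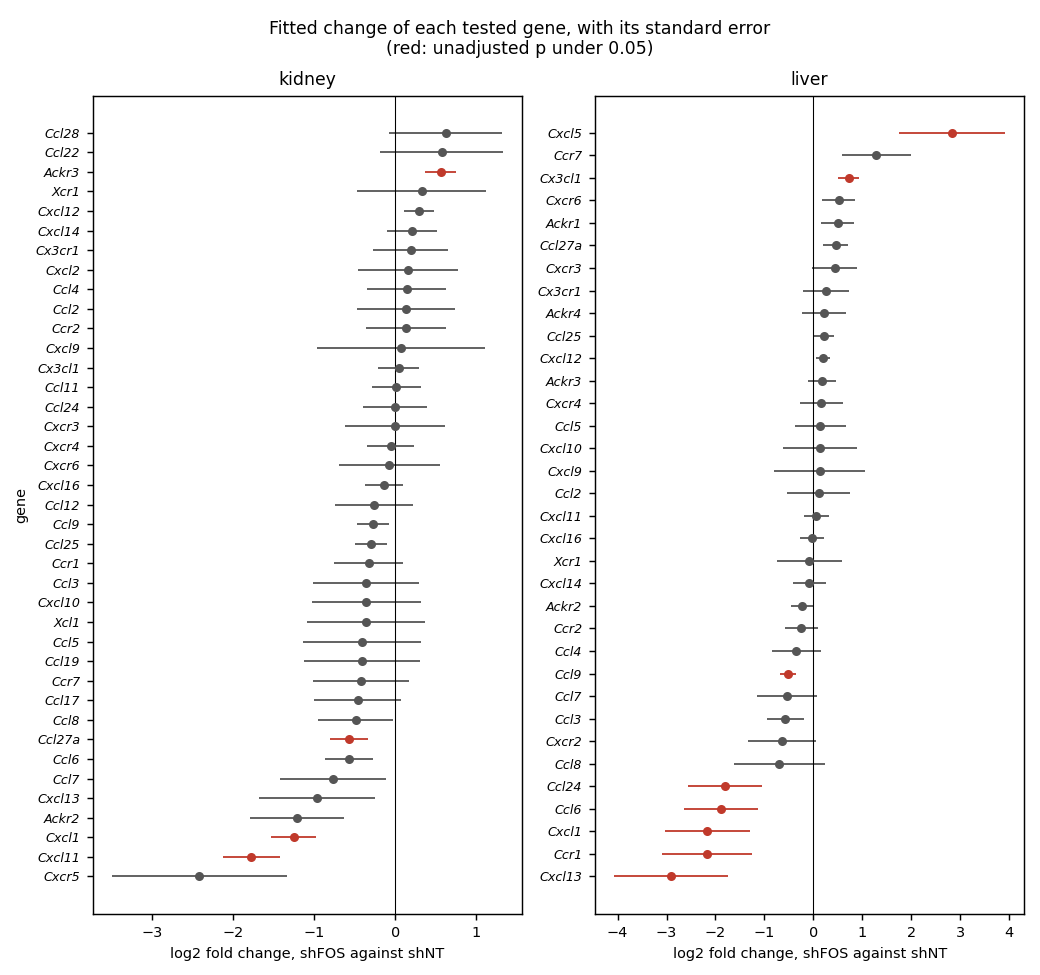
Fitted log2 fold change of sh*Fos* against NT for genes tested in each organ (kidney left, liver right), with bars of 1 standard error. The 4 kidney genes and 8 liver genes with an unadjusted p under 0.05 are red, and the lowest liver value, that of *Cxcl13*, has the widest bar.

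The other kidney genes had an unadjusted p of 0.05 or more. *Ccl7*, a ligand of CCR2, was at 2.50, 3.98, 2.61 and 0.13 CPM in NT and 1.41, 1.53, 1.22 and 1.23 CPM in sh*Fos* kidneys. NT kidney 4 lay below and the other NT libraries above all sh*Fos* libraries. The log2 fold change was -0.77 (standard error 0.65, edgeR adjusted p = 0.447, 0.0128 to 0.759 over 18 alternatives). It was -1.22 (standard error 0.28, edgeR adjusted p = 0.0128) without NT kidney 4 and sh*Fos* kidney 1. That alternative was chosen after the data were seen, and 34.8% of all genes passed in it. *Cxcr5*, the B cell receptor for CXCL13, had the lowest fitted value (log2 fold change -2.42, standard error 1.08), which came from 14.2 CPM in NT kidney 3 and 3.09 CPM in NT kidney 1, against 0.34 and 0.52 CPM in the other NT and 0.26 to 1.29 CPM in sh*Fos* kidneys. The summed B cell markers were highest in those 2 libraries as well (164 and 47.7 CPM, against 6.25 to 21.3 in the other 6 kidneys). *Cxcl13*, the B cell attractant, was at 4.60, 7.01, 17.1 and 52.0 CPM in NT and 5.14, 7.78, 18.8 and 9.68 CPM in sh*Fos* kidneys, and its log2 fold change of -0.97 (standard error 0.72, edgeR adjusted p = 0.380) became 0.11 without NT kidney 4. *Ccr1* (-0.33, standard error 0.43) and *Ccl17* (-0.46, standard error 0.54), a ligand of CCR4, gave adjusted p of 0.625 and 0.579 in edgeR. The study chose these 3 genes for display on these same libraries, so their direction is not independent evidence. *Ccl12* (log2 fold change -0.26, standard error 0.48), *Ccl5* (-0.41, standard error 0.73) and *Ccl28* (0.63, standard error 0.70), which ranged from 7.01 to 92.6 CPM among the sh*Fos* kidneys, also had wide errors.

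In the liver, *Cx3cl1* was higher in all sh*Fos* than in all NT libraries, *Ccl9* was lower in 3 of 4, and the lower fitted values of *Cxcl13*, *Ccr1*, *Ccl6* and *Ccl24* rested on NT livers 3 and 4 and that of *Cxcl1* on NT liver 4. None of the 35 chemokine genes tested passed an adjusted p of 0.05 in edgeR (0% of all 13144 genes), nor in DESeq2, where 0.219% of all genes did. At an unadjusted p under 0.05, 6 were lower and 2 higher, against 3.23% and 3.60% of all genes. The groups of 4 did not overlap for 1 gene, *Cx3cl1*, which was higher (2.79% of all genes), and for 0 lower genes (1.52% of all genes). The median log2 fold change of the 35 genes was 0.06, with 17 below 0, against -0.01 over all genes tested. Without NT livers 3 and 4, an alternative chosen after the data were seen, 1 gene kept an unadjusted p under 0.05 (*Ccl9*), against 7.32% of all genes. The count of 8 was 2 without NT liver 4 (6.67% of all genes) or without sh*Fos* liver 1 (4.17%), and 4 without sh*Fos* liver 3 (4.51%) or 4 (5.10%).

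*Ccl9* was at 220, 243, 185 and 201 CPM in NT livers and at 123, 193, 133 and 147 CPM in sh*Fos* livers. 3 of the 4 sh*Fos* libraries lay below every NT library, and sh*Fos* liver 2 lay between the NT values. The log2 fold change was -0.51 (standard error 0.17, edgeR adjusted p = 0.702, 0.268 to 0.956 over 18 alternatives) and -0.63 without NT livers 3 and 4. *Cx3cl1*, which is sparse in the liver, was at 1.52, 1.85, 1.56 and 1.54 CPM in NT and 2.58, 3.28, 2.82 and 1.97 CPM in sh*Fos* livers. All sh*Fos* libraries lay above the NT libraries, with a log2 fold change of 0.72 (standard error 0.22, edgeR adjusted p = 0.702, 0.397 to 0.956 over 18 alternatives). Its receptor gene *Cx3cr1* was at 3.18 ± 2.10 CPM in NT and 3.77 ± 1.11 CPM in sh*Fos* livers (SD, n = 4 each).

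*Cxcl1* was at 19.1, 22.5, 10.98 and 176 CPM in NT livers and at 4.77, 12.3, 21.3 and 12.5 CPM in sh*Fos* livers. NT liver 4 lay far above the other livers, and the log2 fold change of -2.16 (standard error 0.87, edgeR adjusted p = 0.713) was -0.47 without it. *Ccl6* was at 10.3, 22.0, 62.1 and 176 CPM in NT and 11.45 to 26.1 CPM in sh*Fos* livers, and *Cxcl13* at 1.65, 14.6, 64.5 and 279 CPM in NT and 6.94 to 21.5 CPM in sh*Fos* livers. *Ccr1* was at 0.20, 0.35, 5.83 and 3.97 CPM and *Ccl24* at 0.86, 2.42, 9.11 and 17.6 CPM in NT livers, with 0.36 to 0.72 and 1.68 to 2.81 CPM in sh*Fos* livers. For all 4 of these genes NT livers 3 and 4 were high and NT livers 1 and 2 were within or below the range of the sh*Fos* livers. Their log2 fold changes of -1.88 (*Ccl6*), -2.90 (*Cxcl13*), -2.17 (*Ccr1*) and -1.80 (*Ccl24*) became 0.18, 0.56, 1.04 and 0.38 without NT livers 3 and 4. The study chose *Cxcl13* and *Ccr1* for display on these same livers too. The neutrophil sum was 165 CPM in NT liver 4 and 13.8 CPM in NT liver 3, against 4.79 to 45.5 CPM in sh*Fos* livers. The macrophage sum was 1445 CPM in NT liver 3 and 781 CPM in NT liver 4. It was 337 and 782 CPM in NT livers 1 and 2 and 446 to 763 CPM in sh*Fos* livers. The Kupffer cell sum was highest in NT livers 3 (859 CPM) and 4 (391 CPM). It was 147 and 356 CPM in NT livers 1 and 2 and 176 to 343 CPM in sh*Fos* livers. The part of these cells in the differences was not tested. *Cxcl5* was higher (log2 fold change 2.83, standard error 1.08, edgeR adjusted p = 0.703), mostly through sh*Fos* liver 1 at 7.01 CPM, where the other livers had 0.06 to 1.39 CPM.

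**Figure D4:**
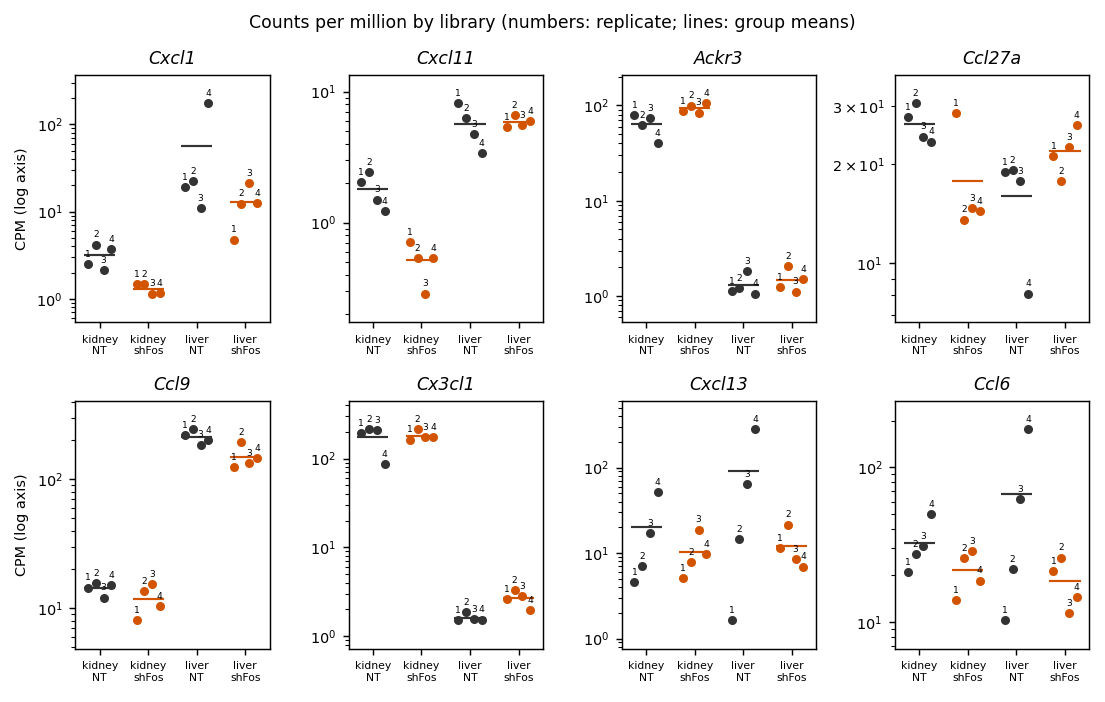
Level of 8 genes in each library, in CPM on a log axis of its own for each panel, with the replicate number beside each point and the group mean as a line. In the kidney *Cxcl1* and *Cxcl11* are separate and lower and *Ackr3* is separate and higher in sh*Fos* libraries, while in the liver the NT means of *Cxcl1*, *Cxcl13* and *Ccl6* are raised by NT livers 3 or 4.

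The effect of sh*Fos* in the liver was compared with that in the kidney in a fit of all 16 libraries. Of the 45 chemokine genes tested, 0 passed an adjusted p of 0.05 in edgeR (0% of all 15421 genes) and 3 had an unadjusted p under 0.05 (16.1% of all genes). DESeq2 gave 23 chemokine genes an adjusted p and called 1, *Cxcl11*. Over all genes it called 82 with a higher and 199 with a lower effect in the liver, of 12411. The count of 3 was 1 without replicate 3 (8.61% of all genes) and 5 without replicate 4 (13.1%). The log2 effect on *Cxcl11* was 1.84 higher in the liver (standard error 0.43, edgeR adjusted p = 0.180, 0.0208 to 0.579 over 8 alternatives and 0.0396 without replicate 1), since its liver groups, at 5.65 ± 2.06 CPM in NT and 5.87 ± 0.582 CPM in sh*Fos* libraries (SD, n = 4 each), differed by 0.06 on the log2 scale. The difference was 1.03 for *Ccl27a* (standard error 0.37, edgeR adjusted p = 0.215), whose liver values were 8.10 to 19.2 CPM in NT and 17.8 to 26.2 CPM in sh*Fos* libraries, and 3.32 for *Cxcl5* (edgeR adjusted p = 0.274).

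For the interferon-inducible ligands *Cxcl9* and *Cxcl10* and for *Ccl5*, the fitted log2 fold changes in both organs were smaller than their standard errors. *Cxcl9* was at 10.6, 56.5, 12.5 and 0.26 CPM in NT kidneys, at 4.95, 16.4, 51.5 and 11.3 CPM in sh*Fos* kidneys, at 18.9, 152, 31.2 and 4.71 CPM in NT livers and at 33.9, 138, 29.7 and 23.9 CPM in sh*Fos* livers. *Cxcl10* was highest in NT kidney 2 (59.7 CPM), NT liver 2 (16.6 CPM) and sh*Fos* liver 2 (15.1 CPM), and *Ccl5*, a ligand of CCR1, was highest in the same 3 libraries of their groups (48.9, 17.8 and 17.7 CPM). NT kidney 4 and NT liver 4 were lowest in their groups for *Cxcl9* and *Cxcl10*. NT kidney 4 was also the lowest NT kidney for *Ccr2* (3.80 CPM, against 17.2 to 30.1), *Cx3cr1* (4.32 CPM, against 18.3 to 30.8), *Cxcr3* (0.45 CPM, against 4.04 to 7.95), *Cxcr6* (0.32 CPM, against 4.04 to 7.03) and *Xcr1* (0 reads, against 3.71 to 6.74 CPM). The same library was the highest NT kidney for *Cxcl13*, *Ccl6*, *Ccr1* and *Ccl28*. Its low T cell and macrophage sums, given above, moved with the receptor values, and their part was not tested.

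**Figure D5:**
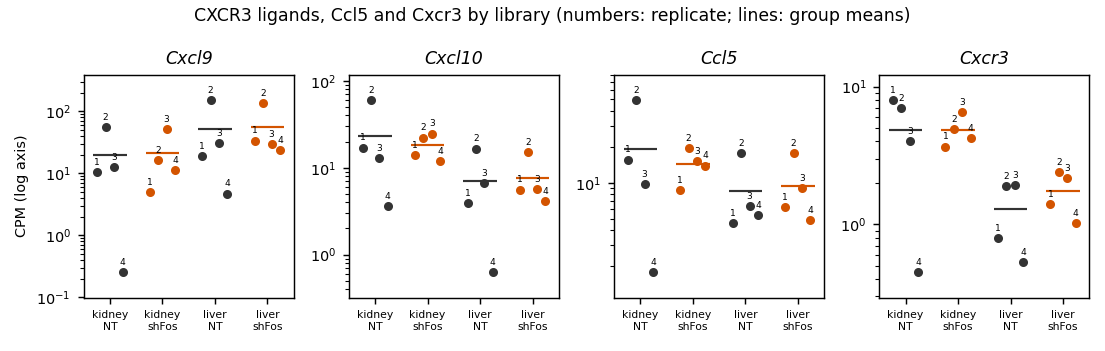
Level of *Cxcl9*, *Cxcl10*, *Ccl5* and *Cxcr3* in each library, in CPM on log axes, with replicate numbers and group means. Replicate 2 is the highest of its group for *Cxcl9* in NT kidneys, NT livers and sh*Fos* livers, and NT kidney 4 is the lowest kidney for all 4 genes.

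Genes that carry the signal of chemokine receptors inside the cell (G protein subunits, arrestins, receptor kinases, RGS proteins, Rac and integrin regulators) were followed as a list of 48 genes. In the kidney all 48 were tested, 24 on each side of 0, and 6 were lower and 6 higher at an unadjusted p under 0.05, against 14.9% lower and 17.1% higher of all genes. None passed the adjusted p in edgeR, and DESeq2 called 3 lower and 5 higher, against 17.0% of all genes in both directions. *Grk2*, a kinase that desensitizes receptors, was at 87.9 ± 3.91 CPM in NT and 72.0 ± 3.17 CPM in sh*Fos* kidneys (SD, n = 4 each; log2 fold change -0.29, standard error 0.07, edgeR adjusted p = 0.0650). *Rap1b*, an integrin-activating GTPase, had a log2 fold change of 0.45 (standard error 0.12) and *Rgs16*, which shortens G protein signalling, one of -0.99 (standard error 0.27), with edgeR adjusted p of 0.0650 and 0.0658. In the liver 36 of the 47 tested had values below 0, against 6875 of all 13144 genes, and the median log2 fold change was -0.27, against -0.01. At an unadjusted p under 0.05, 3 were lower and 1 higher (3.23% and 3.60% of all genes), with 0 past the adjusted p in edgeR and 0 in DESeq2 (0% and 0.219% of all genes). *Grk3* was at 20.5 ± 2.51 CPM in NT and 9.88 ± 3.83 CPM in sh*Fos* livers (SD, n = 4 each; log2 fold change -1.05, standard error 0.26, edgeR adjusted p = 0.685), *Rgs1* had a log2 fold change of -1.35 (standard error 0.45) and *Itgam*, the integrin subunit of neutrophils and macrophages, one of -1.71 (standard error 0.61).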

How the data were processed

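RNA-seq libraries of kidney and liver (4 NT and 4 sh*Fos* each) were analysed from the gene counts that the authors deposited. The authors trimmed reads with Trimmomatic 0.39, aligned them to mm10 with HISAT2 2.2.1 and counted them with HTSeq 0.12.4 without strand. Reads over several genes (1.84% to 2.64%) were set aside as ambiguous, so overlapping genes can lose reads. Rows of uncounted reads (13.4% to 26.7% without a feature) were left out of library sizes. Groups followed the sample labels.

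Counts were TMM-scaled, filtered with filterByExpr and tested with edgeR 4.0.16 (quasi-likelihood test, Benjamini-Hochberg adjustment over all genes tested, R 4.3.3, limma 3.58.1), within each tissue for sh*Fos* against NT, over all 16 libraries for the difference between tissues, and over the 8 NT libraries for liver against kidney. DESeq2 1.42.0, other scalings and filters, a GC correction, replicate blocks and leaving out libraries were alternatives. NT kidney and liver libraries of the same number deviated together (correlations 0.144 to 0.34, all 4 above 0.1). For sh*Fos* libraries these correlations were 0.0297 to 0.145. The main test of liver against kidney did not pair libraries, and the number was a block only in an alternative. The edgeR test of sh*Fos* against NT within each tissue was checked on simulated counts, and the other tests were not.

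The genes and lists were chosen with earlier results of these data known. Genes were named if among the 8 highest per length in a tissue, at an unadjusted p under 0.05, without overlap of the groups, called by DESeq2, among the 8 largest differences between organs in a direction, named by the study, or a ligand or receptor partner of these. *Xcr1*, *Ccr6*, *Ackr2*, *Ccl7* and the genes gained without a library were named after their values were seen. Positions and lengths came from GENCODE M21, which held 98.2% of the symbols, and promoters from RefSeq (GRCm38.p6). The values of 1 receptor gene are not reported here or drawn in the figures, but it is included in all counts and medians.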

Additional observations from a re-analysis of the deposited data

Results flagged for a closer look

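In 16 of 188 groups of 4 libraries (8.51%), 1 library lay far from the other 3 by Dixon's criterion, which chance meets in about 5% of groups. No explanation was tested.

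Among the kidneys, NT kidney 3 had 5.47 CPM of *Ackr2*, an atypical receptor for inflammatory CC chemokines (0.876 to 1.31 in the other NT kidneys), NT kidney 2 had 0.741 CPM of *Ackr4* (0.451 to 0.46), and NT kidney 1 had 1.25 CPM of *Ccr6*, the CCL20 receptor (0 to 0.195). NT kidney 4 was low at 86.4 CPM of *Cx3cl1* (196 to 214) and 21.1 CPM of *Cxcl14* (64.9 to 68.0). sh*Fos* kidney 2 had 0.665 CPM of *Ackr1* (0.129 to 0.215 in the other sh*Fos* kidneys), and sh*Fos* kidney 1 had 28.5 CPM of *Ccl27a* (13.6 to 14.7).

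Among the NT livers, *Ccr3*, the eosinophil receptor, stood out: NT liver 3 had 21.5 CPM from 413 reads, against 0 to 0.173 CPM in the other 3. The same library had 3.44 CPM of *Cxcr5* (0.231 to 0.396). NT liver 4 had 176 CPM of *Cxcl1* (10.98 to 22.5) and only 8.10 CPM of *Ccl27a* (17.8 to 19.2). NT liver 2 had 17.8 CPM of *Ccl5* (4.62 to 6.4) and 1.85 CPM of *Cx3cl1* (1.52 to 1.56). Among the sh*Fos* livers, library 2 had 138 CPM of *Cxcl9* (23.9 to 33.9) and 15.1 CPM of *Cxcl10* (4.13 to 5.69), and library 3 had 2.7 CPM of *Ackr1* (1.68 to 1.74).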

How the results depend on the processing

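For sh*Fos* against NT in the kidney, the 0 calls of edgeR became 2581 genes in DESeq2 (3 of them chemokine genes), 987 in the fit of all 16 libraries (1, *Cxcl11*) and 5171 without NT 4 and sh*Fos* 1 (5). Leaving out 1 library gave 0 to 4173 genes and 0 to 3 chemokine genes, with 3 genes called without NT 4 and 4173 without sh*Fos* 1. In the liver DESeq2 called 28 genes. For the difference between organs DESeq2 called 281 genes (1 a chemokine gene), and leaving out 1 replicate number gave 0 to 449 genes and 0 to 1 chemokine genes, the highest without replicate 1. The cause was not tested.

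Directions turned for values within the spread. With the replicate block, which called 0 genes in either organ, kidney *Ccl5* was 0.18, and 0.24 with the GC correction added. Numbers did not pair NT with sh*Fos* libraries (correlations -0.159 to 0.0969 in the kidney and -0.26 to 0.0308 in the liver). Without NT kidney 4 and sh*Fos* kidney 1, *Ccr1* was 0.071 and *Cxcl13* 0.29. Without NT livers 3 and 4, *Ccl24* was 0.38, *Ccl5* -0.25, *Ccl6* 0.18, *Ccr1* 1.04, *Cxcl11* -0.29, *Cxcl13* 0.56 and *Fos* 0.047. Without 1 kidney, *Ccl17* ranged from -0.84 to 0.15, *Ccl5* from -0.79 to 0.65, *Cxcl13* from -1.43 to 0.11 and *Cxcr4* from -0.26 to 0.10. Without 1 liver, *Ccl5* ranged from -0.35 to 0.78, *Cxcl11* from -0.13 to 0.28 and *Cxcr4* from -0.17 to 0.59 (all log2 fold changes). Liver against kidney gave 16 to 25 chemokine genes without 1 library, and upper-quartile scaling moved its median over all genes from -0.04 to -0.21. Genes with under about 10 reads a library cannot show small differences.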
